A study of Mus musculus with 17 samples.

Results

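The rows described here are 2 blocks of an expression table of sorted mouse spleen cells, listed rows 30201 to 30300 (block A) and 31101 to 31200 (block B), which are taken to lie at or near the probe sets of the immunoglobulin kappa locus once a displacement of the ID list is allowed for. They were chosen by position in the table, counted with blank rows included, in stretches dense in rows that, in control mice, stood 4-fold or more above B220+CD23+ cells in the IgM+CD138+ sort. Of the 200 listed rows, 199 held values (100 in block A and 99 in block B), out of 33327 rows with values among 41801 listed in all. Row 30222 carried ID 17457125, as the positional rule requires.

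The kappa locus encodes the kappa light chain of antibodies and holds many variable segments, a short cluster of joining segments and a single constant segment. Each developing B cell joins 1 variable segment to 1 joining segment, so the transcript of a given segment comes mainly from the cells that chose it. Resting B cells carry light chain in surface receptors, while antibody-secreting cells, marked by CD138, transcribe their rearranged chains far more strongly. The mix of segments in secreting cells can therefore differ from animal to animal with the clones that have expanded.

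The study compared control mice, which lack the low-density lipoprotein receptor (LDL-R KO) and are prone to atherosclerosis, with mice that also carry c-myb h/h, a homozygous allele that lowers the transcription factor c-Myb. Both genotypes thus shared the receptor deletion, and all animals had eaten a cholesterol-rich diet for 12 weeks. RNA came from 3 sorted spleen populations. IgM+CD138+ cells and B220+CD23+ cells were each measured in 3 control and 3 c-myb h/h mice, and B220+CD23-IgM+ cells in 2 control and 3 c-myb h/h mice, giving 17 arrays. The c-myb h/h allele was present in all cells of the animal, so a difference between genotypes need not arise in the B lineage. Arrays of a genotype that share a number were taken as the same mouse, which the labels do not state outright. All values are on the log2 scale, in which 1 unit is a 2-fold change. Array medians lay between 5.13 and 5.21 and maxima between 13.37 and 13.79, so rows near 13 stand at the top of the scale.

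The kappa label was checked against the annotation of the listed IDs, and the rows carry no segment names here because IDs and values matched only after a displacement. No ID annotated to the kappa family fell within either block as listed, although 117 of the 199 IDs had a single gene symbol. Of 19 annotated kappa rows in the whole list, 6 stood at rows 30483 to 30528, after block A, and 12 at rows 31381 to 31442, after block B. The annotated rows were moved up the list, and the IgM+CD138+ excess over B220+CD23+ cells of c-myb h/h mice was averaged there. This mean was highest at a shift of 278 rows, at 2.83 log2 for block A and 4.09 for block B. Without a shift it was 0.13 and 0.09. At a shift of 279 rows all 12 annotated rows of block B landed on rows at least 4-fold higher, while at best 4 of the 6 of block A did so, at 9 shifts between 269 and 281. More than 100 rows from the best shift the highest mean difference was 0.84 for block B and 1.92 for block A. Block B is thus placed more sharply than block A. Both placements rest on the same contrast of populations that chose the blocks, read here in c-myb h/h instead of control mice. They are given as a description with no test. All 168 kappa-family genes of the RefSeq gene table lie on chromosome 6. The markers of the sorted cells, read as listed, gave no clear check. Of 17 marker symbols 14 were listed with a value, on 21 rows, and 3 of those rows differed at least 2-fold between IgM+CD138+ and B220+CD23+ cells of control mice. Higher in IgM+CD138+ cells were 2 of the 7 rows listed for Ighm, the IgM heavy chain (5.57 and 4.31 log2), and the row listed for Cd3e, a T cell gene (1.44). The rows listed for Sdc1, which encodes CD138, and for Fcer2a, which encodes CD23, differed by less, and under a displaced list none of these rows need read the gene it names. Variable segments resemble each other in sequence, so a row may also read transcripts of near-identical segments, and its brightness depends on its probes. Rows are ordered by brightness below only to choose which to show, and that order is not read as an order of expression.

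In the cells of control mice, the contrast that chose the blocks read as follows. IgM+CD138+ cells were at least 4-fold above B220+CD23+ cells in 33 of the 100 rows of block A and in 50 of the 99 rows of block B, against 1.46% of all rows. These rows sat in 1 stretch of each block, rows 30214 to 30257 in A and 31102 to 31165 in B, with none outside. Inside the stretches the median difference was 3.21 log2 in A and 3.36 in B, and outside them 0.04 and -0.09. The 100-row windows on either side of the blocks held 0 to 4 such rows. At the edges of the blocks the difference was -0.16 at row 30201, 0.16 at row 30300, -0.11 at row 31101 and -0.15 at row 31200. Just below the 4-fold line stood rows 30231 (1.94) and 30227 (1.77) in A and rows 31170 (1.97) and 31166 (1.85) in B. Just above it stood rows 30235 (2.30) and 30234 (2.48) in A and rows 31108 (2.12) and 31148 (2.42) in B.

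**Figure D1:**
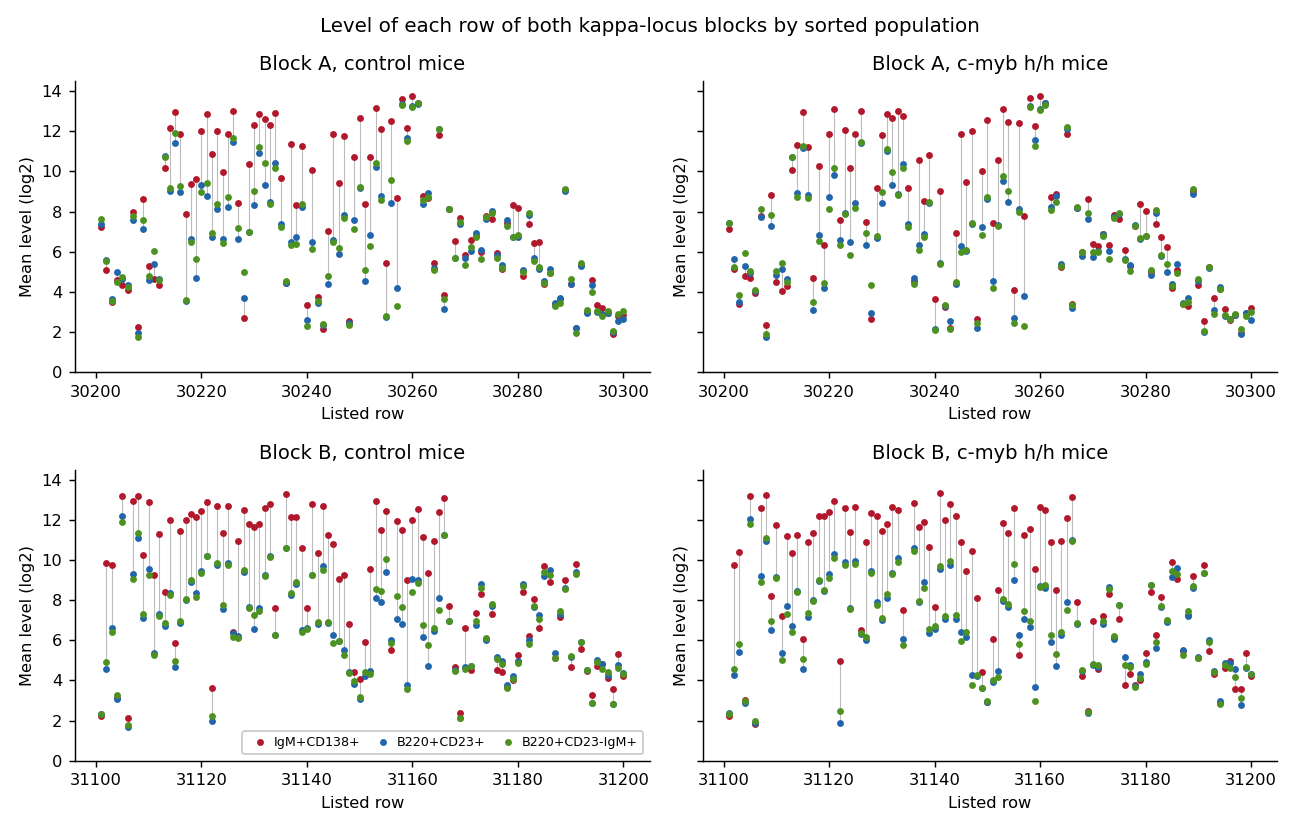
Mean level (log2) of each row of block A (top) and block B (bottom) against its place in the list, in control (left) and c-myb h/h mice (right). Points are group means over 2 or 3 mice, coloured by sorted population, and grey lines join IgM+CD138+ to B220+CD23+ cells. The IgM+CD138+ points stand high over rows 30214 to 30257 and from row 31102 on, while the other populations lie close together.

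The contrast that chose the blocks did not use the c-myb h/h arrays, although earlier results of these data were known at the choice. With that limit, the c-myb h/h arrays showed whether the same rows were high in IgM+CD138+ cells of other mice. IgM+CD138+ cells were at least 4-fold above B220+CD23+ cells in 29 rows of block A and 53 of block B, against 1.39% of all rows. Across both blocks 77 rows passed 4-fold in both genotypes, which is 92.8% of the 83 in control mice and 93.9% of the 82 in c-myb h/h mice. In c-myb h/h mice the stretch of block A had the same ends as in control mice, and that of block B ran on to row 31170, which is taken as its end from here on (44 rows with values in A and 68 in B). The same c-myb h/h values set these ends, and the median difference inside them was 2.68 and 3.32.

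Tested in c-myb h/h mice with limma over all 33327 rows, IgM+CD138+ and B220+CD23+ cells differed in 50 rows of block A and 76 of block B at an adjusted p under 0.05, where 25.1% of all rows differed. Of these, 45 and 68 were higher in IgM+CD138+ cells (12.0% of all rows) and 5 and 8 lower (13.1%). The median difference was 0.60 log2 over block A and 2.21 over block B, against -0.02 over all rows. Inside the stretches 34 of 44 rows of A and 59 of 68 of B were called higher, and the differences ran from -0.35 to 5.59 in A and from -0.998 to 6.18 in B. Outside them 11 of 56 rows of A and 9 of 31 of B were called higher, with differences of at most 1.75 and 0.79. The stretches were set by rows at least 4-fold higher in these same c-myb h/h arrays. The contrast between inside and outside therefore follows from that choice and is no separate result.

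Against B220+CD23-IgM+ cells the picture was close to that. IgM+CD138+ cells of c-myb h/h mice differed in 50 rows of block A and 69 of block B by the same limma test (20.9% of all rows), 43 and 65 of them higher (9.56% of all rows) and 7 and 4 lower (11.4%). Both comparisons share the IgM+CD138+ arrays.

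The B220+ populations were much nearer to each other. No row of either block differed between B220+CD23-IgM+ and B220+CD23+ cells of c-myb h/h mice in the limma test, where 1.18% of all rows did. At an unadjusted p under 0.05 there were 16 such rows in block A and 6 in block B, against 11.6% of all rows, and the lowest adjusted p was 0.0705, at row 30232. Other analysis settings called at most 2 rows of A and 1 of B, and leaving out replicate 1 or replicate 3 of c-myb h/h B220+CD23-IgM+ cells gave 1 and 2 rows of A (and 1 of B without replicate 1). The median differences were 0.01 and 0.02 log2. In control mice, whose arrays overlap with those that chose the blocks, they were 0.02 and -0.02.

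Levels by population can be read from the array medians over each block. In block A they averaged 7.81 ± 0.15 (SD, n = 3) in control and 7.38 ± 0.18 (SD, n = 3) in c-myb h/h IgM+CD138+ cells. For B220+CD23+ cells they averaged 6.46 ± 0.14 (SD, n = 3) and 6.23 ± 0.17 (SD, n = 3). For B220+CD23-IgM+ cells the figures were 6.34 ± 0.04 (SD, n = 2) and 6.11 ± 0.03 (SD, n = 3). In block B the averages were 9.19 ± 0.39 (SD, n = 3) and 9.41 ± 0.36 (SD, n = 3) in IgM+CD138+ cells. They were 6.69 ± 0.11 (SD, n = 3) and 6.68 ± 0.11 (SD, n = 3) for the B220+CD23+ sort and 6.90 ± 0.14 (SD, n = 2) and 6.80 ± 0.15 (SD, n = 3) for the B220+CD23-IgM+ sort. Every IgM+CD138+ array stood above every array of the other populations in both blocks. For the control IgM+CD138+ and B220+CD23+ arrays this follows from how the blocks were chosen. The contrast behind that choice did not use the c-myb h/h arrays, although earlier results of these data were known. The medians over all rows were 5.14 to 5.19 in every group. In bulk samples like these, fewer cells carrying a segment and less of its RNA per cell cannot be told apart.

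The 4 rows of each block with the brightest readings in c-myb h/h IgM+CD138+ cells showed different patterns across the populations. They were picked on the same IgM+CD138+ arrays that are compared with the B220+CD23+ arrays here, which favours positive differences. The p-values of these rows, here and in the next paragraph, are therefore descriptions and no separate support. Row 31141 of block B read 13.45, 13.38 and 13.19 in those cells. In the same genotype the B220+CD23+ cells read 9.63, 9.46 and 9.52, and the B220+CD23-IgM+ cells 9.82, 9.72 and 9.56. It was 3.80 log2 higher in the IgM+CD138+ than in the B220+CD23+ cells (SE 0.12, limma adjusted p = 1.48e-11). The other 3 rows of block B, 31108, 31166 and 31105, had differences of 2.30, 2.16 and 1.13. In block A, row 30253 read 13.17, 13.02 and 13.10 in c-myb h/h IgM+CD138+ cells and 9.78, 9.61 and 9.17 in B220+CD23+ cells, a difference of 3.58 (SE 0.14, limma adjusted p = 6.36e-11). The IgM+CD138+ readings of these 5 rows lay near the array maxima, so their differences may be understated, which was not tested.

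The other 3 of the brightest rows of block A, 30258, 30260 and 30261, lay directly after the stretch and were bright in every population. Row 30261 read 13.39 to 13.46 in c-myb h/h IgM+CD138+ cells. The B220+CD23+ cells of that genotype read 13.36 to 13.44 and the B220+CD23-IgM+ cells 13.29 to 13.35. The IgM+CD138+ cells exceeded the B220+CD23+ cells by 0.02 log2 (SE 0.08, limma adjusted p = 0.877). Rows 30258 and 30260 differed by 0.40 and 0.66 (limma adjusted p = 0.00414 and 1.58e-05). These 3 rows stood close to the array maxima in all populations. The rows with the dimmest readings there were 30298, 30243, 30208 and 30291 in block A, with means of 1.96 to 2.57 in c-myb h/h IgM+CD138+ cells, and 31106, 31101, 31169 and 31194 in block B, with means of 1.82 to 2.88.

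Mice of the same genotype stood further apart in the stretches than over all rows, in every sorted population. Inside the stretches the median SD between the 3 mice was 0.30 log2 in A and 0.31 in B for control mice and 0.45 and 0.32 for c-myb h/h mice, against 0.20 and 0.19 over all rows. Bright rows usually vary less, and over all rows with a group mean above 8 the median SD was 0.12 and 0.11. In the same stretches B220+CD23+ cells had median SDs of 0.22 and 0.19 for control mice, and of 0.16 and 0.18 for c-myb h/h mice, against 0.15 and 0.14 over all rows. The B220+CD23-IgM+ sort had 0.18 and 0.21 for the control pair (0.12 over all rows) and 0.24 and 0.24 for c-myb h/h mice (0.15 over all rows). The choice of the blocks used mean differences of the control arrays and not their spread, but the stretches were set after the values were seen, so these figures are descriptions.

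An SD above 1 log2 in IgM+CD138+ cells was found in 5 rows of block A and 10 of block B in control mice, and in 11 and 9 in c-myb h/h mice. Over all rows such a spread was found in 0.57% and 0.41%. The rows numbered 25 in all, every one inside a stretch, and 10 of them were wide in both genotypes, which is 10 of the 15 for control mice and of the 20 for c-myb h/h mice. No row of either block passed this line in B220+CD23+ cells of either genotype. In B220+CD23-IgM+ cells 2 rows of block A did in the control pair and 1 row of block B in c-myb h/h mice.

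**Figure D2:**
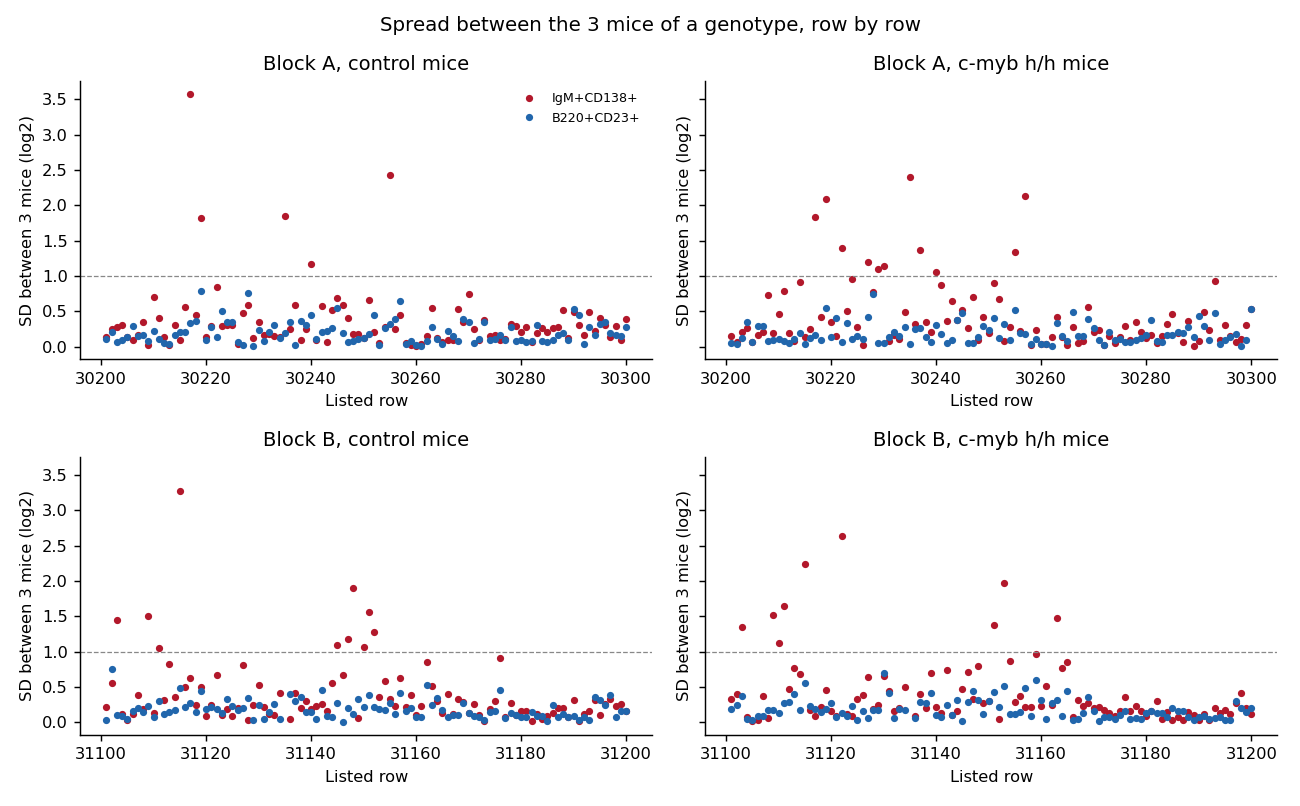
SD between the 3 mice of a genotype (log2) for each row of block A (top) and block B (bottom), in control (left) and c-myb h/h mice (right), for IgM+CD138+ and B220+CD23+ cells. The dashed line marks an SD of 1. The points above it, 15 for control mice and 20 for c-myb h/h mice, are all IgM+CD138+ cells.

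The widest row was 30217 in block A. It read 11.03, 3.98 and 8.55 in the IgM+CD138+ cells of control mice 1, 2 and 3, and 3.76, 3.51 and 6.80 in those of c-myb h/h mice 1, 2 and 3. In B220+CD23+ cells it read 3.83, 3.60 and 3.18 in control and 2.90, 3.24 and 3.11 in c-myb h/h mice. A single control mouse thus read near the B220+ level while another was 7.05 log2 above it, and the genotypes overlapped. Row 31115 in block B had the next largest spread, with 6.10, 9.03 and 2.50 in control and 4.87, 8.66 and 4.71 in c-myb h/h IgM+CD138+ cells. Row 31122 read 2.09, 7.29 and 5.46 in c-myb h/h IgM+CD138+ cells, and 3.44, 4.39 and 3.11 in control. In each of these rows at least 1 mouse read near the level of its B220+CD23+ cells or below it, and another was far above. Rows 30217, 31115 and 31122 were picked for their spread after it was seen.

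The mouse that read highest varied from row to row in block B. Of the 10 wide rows of control mice there, mouse 3 read highest in 6, mouse 1 in 3 and mouse 2 in 1. Of the 9 in c-myb h/h mice, mouse 3 read highest in 4, mouse 2 in 3 and mouse 1 in 2. In block A the wide rows leaned to 1 mouse of each genotype, with control mouse 1 highest in 4 of 5 and c-myb h/h mouse 3 highest in 8 of 11. Over all 44 rows of the stretch in A, c-myb h/h mouse 3 read highest in 21, and over the 68 rows in B in 35. Control mouse 1 read highest in only 7 of the 44 rows, while control mouse 3 did in 22 of them and in 30 of the 68 in B.

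The profile across rows was nevertheless alike between mice. Over the 44 rows of the stretch in A, Pearson's r between IgM+CD138+ arrays had a median of 0.931 for pairs within a genotype (6 pairs, lowest 0.903) and 0.923 for pairs between genotypes (9 pairs, lowest 0.852). Over the 68 rows in B these medians were 0.947 and 0.948. B220+CD23+ arrays gave 0.989 and 0.983 in A and 0.991 and 0.986 in B. The points are rows of the same arrays that share probe brightness, which alone raises r, and they are no replicates.

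Deviations from the group mean tended to go together in arrays taken as the same c-myb h/h mouse, and in control mice this varied between pairings. Over the stretch in A, r between the deviations in IgM+CD138+ and B220+CD23+ cells was 0.10 to 0.49 for the 3 arrays of the same number, and -0.36 to 0.22 for the 6 pairings of other numbers. Over the stretch in B these were 0.13 to 0.45 and -0.30 to 0.14. In control mice the same-number values ran from -0.17 to 0.21 in A and from 0.01 to 0.45 in B. Deviations within a group of 3 sum to 0, so other-number values are lowered by construction.

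The comparison of genotypes asked whether the c-myb h/h allele changed the levels of these rows in each population. The control IgM+CD138+ and B220+CD23+ arrays took part in choosing the blocks. In IgM+CD138+ cells the median difference, c-myb h/h minus control, was -0.02 log2 in block A and 0.003 in block B, against -0.0007 over all rows. The B220+CD23+ cells gave -0.07 and -0.02 (-0.01 over all rows), and the B220+CD23-IgM+ cells gave -0.09 and -0.04 (0.0009 over all rows). Each of these block medians was smaller than the pooled SD of the array medians between mice except that of block A in B220+CD23-IgM+ cells, where the pooled SD was 0.03.

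By limma, 1 row of the 199 differed between genotypes in IgM+CD138+ cells at an adjusted p under 0.05, where 0.135% of all rows did. That row was 30222 in block A, with lower levels in the c-myb h/h animals. At an unadjusted p under 0.05 there were 43 rows, 14 higher and 29 lower, where 9.82% of all rows passed. The count of called rows rose to 4 without control replicate 2 (39 of all rows, against 45 with every array), to 6 without c-myb h/h replicate 1 (74 of all rows) and to 3 without c-myb h/h replicate 3 (30 of all rows), and row 30222 was among the called rows each time. In B220+CD23+ cells limma called 0 rows (0.063% of all rows) with 15 at an unadjusted p under 0.05, which 4.82% of all rows reached. For the B220+CD23-IgM+ sort it called 0 rows (0.024% of all rows), with 19 unadjusted (6.42% of all rows). Without c-myb h/h replicate 3 of B220+CD23-IgM+ cells 1 row was called (35 of all rows, against 8 with every array). Leaving out a control array of that sort leaves only 1, so no count is given for those fits.

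Row 30222 read 10.05, 10.88 and 11.74 in control and 7.11, 6.48 and 9.16 in c-myb h/h IgM+CD138+ cells. All 3 c-myb h/h values lay below all 3 control values, and 2 of them were close to the level of B220+CD23+ cells, 6.50 to 6.80 across both genotypes. The difference was -3.30 log2 (SE 0.50, limma adjusted p = 0.0161). It stayed called when any of the 6 arrays was left out, with differences from -4.09 to -2.75, but not with ordinary least squares (adjusted p = 0.116) or a fit of the IgM+CD138+ arrays alone (limma adjusted p = 0.546). The row was singled out with this difference known. Its difference was -0.14 (limma adjusted p = 1) for the B220+CD23+ sort and -0.62 (limma adjusted p = 0.928) for the B220+CD23-IgM+ sort.

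Row 30219, 3 rows before it, had a difference of nearly the same size that was not called. It read 11.30, 9.80 and 7.69 in control and 3.92, 7.51 and 7.55 in c-myb h/h IgM+CD138+ cells. The groups did not overlap, but the lowest control value was only just above the highest c-myb h/h value. The difference was -3.27 log2 (SE 0.87, limma adjusted p = 0.204), and it ran from -2.07 (c-myb h/h replicate 1 left out) to -4.22 (control replicate 3 left out). In B220+CD23-IgM+ cells the row read 5.45 and 5.85 in control and 4.23, 4.31 and 4.82 in c-myb h/h mice, again without overlap, a difference of -1.20 (limma adjusted p = 0.915).

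In block B the largest differences without overlap in IgM+CD138+ cells went the other way. Row 31113 read 8.74, 9.03 and 7.49 in control and 9.51, 10.54 and 11.03 in c-myb h/h mice, a difference of 1.94 (SE 0.37, limma adjusted p = 0.0609). Row 31142 read 10.07, 10.57 and 10.43 in control and 11.15, 12.28 and 12.54 in c-myb h/h mice, a difference of 1.63 (SE 0.32, limma adjusted p = 0.0627). Neither was called. Leaving out c-myb h/h replicate 1 brought them to limma adjusted p = 0.0140 and 0.00942, leaving out control replicate 2 brought row 31113 to 0.0413, and over all leave-outs their differences ran down to 1.48 and 1.36. The largest falls without overlap in block B were smaller, -0.68 at row 31117 (-0.94 to -0.34 with an array left out) and -0.53 at row 31116 (-0.68 to -0.25), neither of them called. Both moved closest to 0 without control replicate 1. Rows 31111 (-2.06, limma adjusted p = 0.261) and 31109 (-2.03, limma adjusted p = 0.298), picked after their values were seen, fell short of the threshold with larger differences, and their groups overlapped. In block A the largest rises without overlap were 0.95 at row 30269 (0.63 without c-myb h/h replicate 3) and 0.69 at row 30233, also not called.

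**Figure D3:**
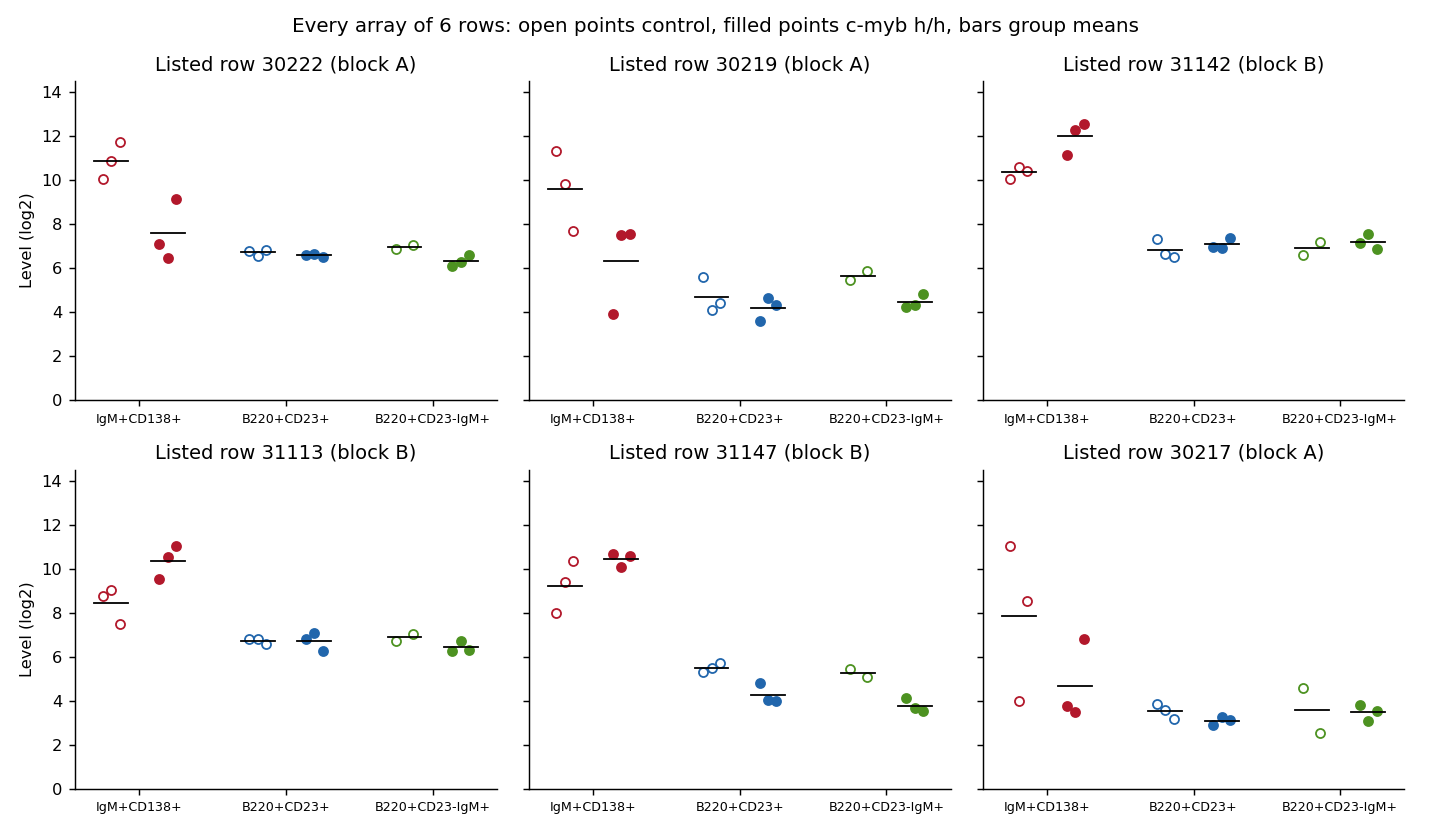
Level (log2) of 6 rows on every array, by sorted population, with control mice as open points, c-myb h/h mice as filled points and bars at the group means. In rows 30222 and 30219 the c-myb h/h IgM+CD138+ arrays lie below the control arrays, in rows 31142 and 31113 above them, and row 30217 spans 3.51 to 11.03 over the IgM+CD138+ arrays.

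In the B220+ populations the rows furthest apart without overlap were these. Row 30241 read 6.56, 6.35 and 6.51 in control and 5.36, 5.62 and 5.26 in c-myb h/h mice (B220+CD23+ cells), a difference of -1.06 (SE 0.30, limma adjusted p = 0.493). A fit of the B220+CD23+ arrays alone called it (limma adjusted p = 0.0435). Row 30253 read 10.24, 10.24 and 10.19 in control and 9.78, 9.61 and 9.17 in c-myb h/h mice, a difference of -0.70 (SE 0.14, limma adjusted p = 0.130), and it was called with array weights and with trend and robust moderation. Row 30221 was higher in c-myb h/h mice, 10.07, 10.06 and 9.35 against 9.11, 8.62 and 8.63 in control, a difference of 1.04 (limma adjusted p = 0.764). Row 30299 followed with 0.40.

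In block B, row 31147 stood lower in both B220+ populations of c-myb h/h mice. It read 5.31, 5.47 and 5.71 in control and 4.79, 4.03 and 3.99 in c-myb h/h mice for the B220+CD23+ sort, a difference of -1.23 (SE 0.41, limma adjusted p = 0.741). In B220+CD23-IgM+ cells it read 5.43 and 5.08 in control and 4.11, 3.70 and 3.56 in c-myb h/h mice, a difference of -1.47 (SE 0.46, limma adjusted p = 0.462). In IgM+CD138+ cells its difference was 1.22 with overlapping groups. Row 31103 differed by -1.21 in B220+CD23+ cells. Row 31157 differed by -0.77 in the B220+CD23-IgM+ sort. Row 31141, whose IgM+CD138+ readings neared the top of the scale, was higher in all 3 populations without overlap, by 0.52 (IgM+CD138+), 0.26 (B220+CD23+) and 0.45 (B220+CD23-IgM+), and was called in none (limma adjusted p = 0.141, 1 and 0.454). The other highest rows of block B without overlap were 31129 for the B220+CD23+ sort (0.26) and 31146 for the B220+CD23-IgM+ sort (0.46).

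Leaving out an array changed some of these differences. Row 30256 read 8.50 and 10.63 in control and 8.05, 7.73 and 8.18 in c-myb h/h B220+CD23-IgM+ cells. Its difference of -1.58 became -0.51 without control replicate 2 and -2.65 without control replicate 1. Each of these fits left 1 control array, so only the sizes are given. In these cells row 30204 read 4.34 and 4.60 in control and 6.36, 6.36 and 5.10 in c-myb h/h mice. Its difference of 1.47 ran from 1.26 to 1.89 with an array left out. It was called without c-myb h/h replicate 3 (1.89, limma adjusted p = 0.00662). Row 30252 differed by 0.99 in the same cells and was not called.

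Counts of rows whose genotype groups did not overlap were read against all rows. In IgM+CD138+ cells 3 rows of A and 9 of B were higher in c-myb h/h mice (5.29% of all rows) and 7 and 6 lower (5.21%). In B220+CD23+ cells 4 and 3 were higher (6.52%) and 12 and 15 lower (7.72%). For the B220+CD23-IgM+ sort, with only 2 control arrays, 12 and 8 were higher (12.4%) and 26 and 12 lower (12.2%). Lower rows thus made up a larger share than over all rows in both blocks for IgM+CD138+ and B220+CD23+ cells. For block A they did so also in B220+CD23-IgM+ cells. Higher rows made up a larger share than over all rows only in block B for IgM+CD138+ cells. Inside the stretch of A the median genotype difference was -0.13 log2 for the B220+CD23+ sort and -0.26 for the B220+CD23-IgM+ sort, and outside it -0.04 and -0.01. Inside the stretch of B it was -0.04 and -0.13, and outside it -0.02 and 0.01. For the IgM+CD138+ sort it was -0.09 inside and 0.02 outside the stretch of A, and -0.03 and 0.02 for that of B. None of the rows behind the medians of the B220+ sorts was called. Among those behind the IgM+CD138+ medians only row 30222 was.

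**Figure D4:**
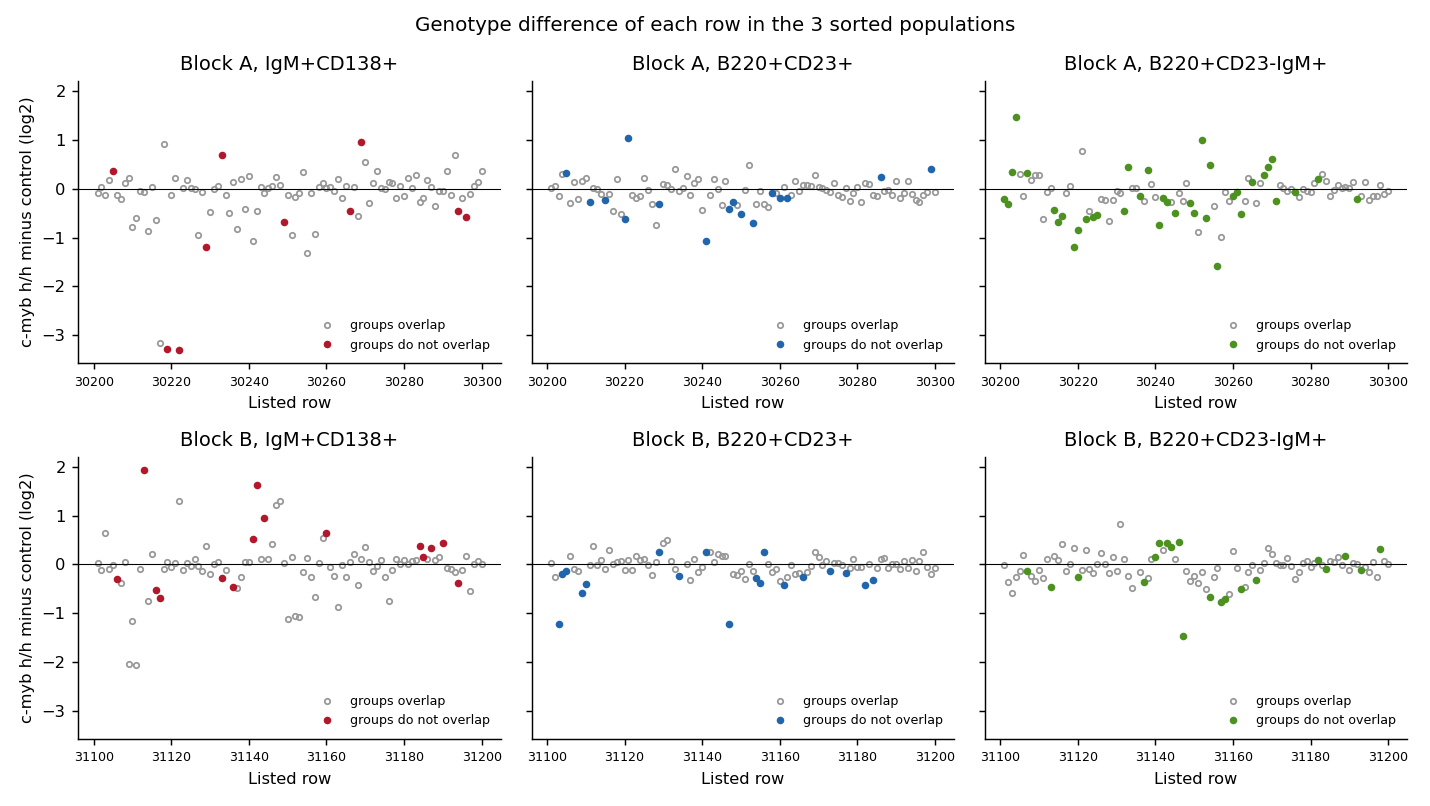
Difference between c-myb h/h and control means (log2) for each row of block A (top) and block B (bottom) in the 3 sorted populations. Filled points are rows whose genotype groups do not overlap and open grey points the others. Row 30222 lies at -3.30 in IgM+CD138+ cells, and most points in the other populations lie within 1 of 0.

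A difference of at least 2-fold between genotype means was found in IgM+CD138+ cells for 0 rows higher and 6 lower in block A and for 5 higher and 6 lower in block B, where 0.282% of all rows were higher and 0.222% lower by that much. The B220+CD23+ sort had 1 higher and 1 lower in A and 2 lower in B (0.192% and 0.045% of all rows). The B220+CD23-IgM+ sort had 1 higher and 2 lower in A and 1 lower in B (0.276% and 0.159%). The spread between mice was widest in IgM+CD138+ cells over all rows as well as in the blocks, and its part in these counts was not tested.

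Interaction terms in limma tested if the effect of genotype was unequal between populations. No row of either block passed an adjusted p of 0.05 for IgM+CD138+ against B220+CD23+ cells (0.0% of all rows), with 22 at an unadjusted p under 0.05 (6.18% of all rows). None passed when IgM+CD138+ was set against B220+CD23-IgM+ (0.0%), with 23 unadjusted (6.65%), or when the 2 B220+ populations were set against each other (0.0%), with 8 (3.64%). For row 30222 the genotype difference in IgM+CD138+ minus that in B220+CD23+ cells was -3.17 (SE 0.70, limma adjusted p = 0.433), and with replicate 3 of the c-myb h/h IgM+CD138+ arrays left out it was -3.95 (limma adjusted p = 0.0127), the only such call in either block among the settings run.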

How the data were processed

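The deposited table holds 1 column per array, 17 in all, and the authors' values are on a log2 scale, judged from their range; the submitters' processing notes name RMA without a version. Separate mice are named by the series' design text. RMA sets all arrays to 1 distribution, so a change common to all rows would not show. Rows were taken by position and no value was altered. Levels are group means, and errors are SDs between mice. One limma fit with 6 groups (version 3.58.1, R 4.3.3, 11 residual degrees of freedom, eBayes) covered all 33327 rows with values, with Benjamini-Hochberg adjustment and a threshold of 0.05. No filter on dim rows was used, since a row passing only through the population where it is high had to differ; under such a filter 74 rows of block A and 81 of block B would remain. The fit was tested on simulated data. Arrays taken as the same mouse had a consensus correlation of 0.0099 over all rows, and the fit has no mouse term. Rows named are those called by genotype or interaction, the 4 brightest and 4 dimmest per block in c-myb h/h IgM+CD138+ cells, the 2 largest differences per direction, block and population without overlap, the 2 on either side of the 4-fold line, and block edges. Blocks, rule and lists were chosen with earlier results of these data known. Figures were drawn with matplotlib 3.10.9.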

Additional observations from a re-analysis of the deposited data

Results flagged for a closer look

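In 3 rows of block B every c-myb h/h array lay on one side of the control arrays in one population and on the other side in another, which is 3.03% of that block; no row of block A did so, and 2.54% of all rows did. Row 31113 differed between genotypes by 1.94 log2 in IgM+CD138+ cells and by -0.46 in B220+CD23-IgM+ cells; the interaction was 2.40 (SE 0.56, limma adjusted p = 0.527). Row 31182 differed by -0.42 in B220+CD23+ and by 0.0925 in B220+CD23-IgM+ cells, with an interaction of 0.51 (SE 0.20, limma adjusted p = 1). Row 31184 differed by 0.38 in IgM+CD138+ cells, by -0.32 in B220+CD23+ cells and by -0.0926 in B220+CD23-IgM+ cells; the interaction of IgM+CD138+ against B220+CD23+ cells was 0.70 (SE 0.14, limma adjusted p = 0.286). None of these differences between populations passed the threshold. Single arrays far from the rest of their group were not looked for in this way, as no group had more than 3 arrays.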

How the results depend on the processing

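Counts of rows differing between IgM+CD138+ and either B220+ population in c-myb h/h mice stayed within 1.5 times of the values given, in both blocks and under every alternative run, including mouse as a random block. Between the B220+ populations the 0 rows of block A became 1 with a brightness filter, 2 with array weights, 1 with only the groups compared and 2 with trend and robust moderation (0 to 2 with an array left out); those of block B became 1 with array weights and 1 with trend and robust moderation (0 to 1). The 1 row called by genotype in IgM+CD138+ cells became 2 with arrays centred and scaled, 2 with trend and robust moderation, 0 with ordinary least squares and 0 with only the groups compared, and 1 to 6 with an array left out. The replicate block took a different form in each kind of comparison. For genotype it was the replicate number, which pairs arrays of the 2 genotypes by number only, and the count became 2; same-numbered mice of different genotypes share nothing else that is known. Between populations and for interactions it was the mouse as a fixed block, and the counts were 52 and 50 in block A and 76 and 67 in block B for IgM+CD138+ against either B220+ population, and 0 between the B220+ populations and for all interactions. In B220+CD23+ cells 0 became 1 with array weights, 1 with only the groups compared and 1 with trend and robust moderation, and stayed 0 with any array left out; in B220+CD23-IgM+ cells it was 0 to 1. Interactions gave 0 to 1 with an array left out for IgM+CD138+ against B220+CD23+ cells and 0 otherwise. The cause of these changes was not tested. No block median moved by more than the spread between mice. With 2 or 3 arrays a group, the number of mice limits precision.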
